A study of Mus musculus with 28 samples.

Results

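The genes described here build ribosomes. They are a list of 46 genes with known roles: 16 factors of large-subunit assembly, 19 of small-subunit assembly, 4 proteins of the small nucleolar ribonucleoproteins (snoRNPs) or working with them, 3 abundant nucleolar phosphoproteins, and 4 subunits or partners of RNA polymerase I. Each gene was found on the array by its name or an older alias, and the brightest probe that was well above background on at least 3 of the 28 arrays stood for it. All 46 were found, among 19441 genes that passed the same filter of 27670 named on the array. The rule used no difference between groups, but the list was chosen with earlier results of these data known. Of the 46 probes, 31 were measured well above background on all 28 arrays and none was saturated on any array; the fewest arrays for a probe was 23. Outlier spots were removed, which left 26 values missing in 15 of the genes, and apart from Ddx10 on 1 array every shortfall was such a missing value.

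Ribosomes are assembled in the nucleolus. RNA polymerase I transcribes a long precursor of the ribosomal RNAs, snoRNPs guide its chemical modification, and a large number of assembly factors fold, cut and package it with ribosomal proteins into a small and a large subunit. A resting T cell is small and makes little protein, and signals through the T cell receptor and CD28 make it grow before it divides, with a larger nucleolus and more ribosomes. The transcription factor Myc is known to act on many genes of this pathway in dividing cells.

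The series measured total RNA on 28 single-colour Agilent arrays, from T cells of BALB/c mice sorted by CD4 or CD8. The mice were 4 months old (young) or 20 months old (old). Cells were taken at 0 h, with 3 arrays for each age and cell type, or after 4, 12, 24 and 72 h on plates coated with stimulating antibodies to CD3 and CD28, with 1 array for each age, cell type and time, which makes 20 groups. The labels call the cells naive but disagree on the sorting gate: the titles, the cell type field and the growth protocol give CD44 high, and the description field and the design text give CD44 low. RNA from 4 sortings was pooled for each time, and nothing in the labels says that the 0 h arrays came from separate animals, so p-values measure the spread between these arrays, which may be technical.

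Values are given as the log2 of the signal minus the log2 of that array's 75th percentile (called the level). A level of 0 is the brightness of the 75th percentile of the array's probes, and levels of different probes are not compared. Pairs of 0 h arrays of a group that lay on the same slide differed less (SD of log2 differences over genes 0.46 to 0.807) than pairs on different slides (0.929 to 1.26). The 10 arrays of stimulated CD4 cells and of replicate 3 of the CD4 0 h groups were read on scanner model G2505B, and the other 18 on G2505C. Each stimulated time lay on slides of its own, so that time and slide cannot be told apart. The 6 arrays of CD4 cells at 12, 24 and 72 h were dimmer (75th percentile 121 to 275 against 247 to 874 on the others) and noisier (coefficient of variation between repeat spots 16.8 to 22.1% against 4.57 to 10.5%), and 19 of the 26 missing values lay on them. Scaling left the median of all genes 0.26 above 0 h in CD4 cells at 12 h and 0.21 above it at 72 h, and within 0.1 of 0 h at the other times and in CD8 cells.

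The times of the CD8 arrays at 4, 12 and 24 h are in doubt. The authors' table of log2 values holds, for both ages, the CD8 array labelled 12 h in its scanner file under 4 h, the one labelled 24 h under 12 h, and the one labelled 4 h under 24 h; the other 22 columns match their scanner files. Times of the scanner files are used here. Counts of members under the times of the table are given beside them, and every single CD8 value at 4, 12 or 24 h, of lists and of Myc too, carries the scanner file's time. With the scanner files' times the median change of 24 mitosis genes in CD8 cells was -1.04 at 4 h, 1.07 at 12 h, 4.21 at 24 h and 4.12 at 72 h, so that under the table's times the value of -1.04 would stand at 24 h. In CD4 cells, where both sources match, it was 0.15, 0.79, 4.33 and 4.16.

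The labelled cell types matched their receptors. At 0 h the summed linear level of the CD4 lineage markers was 2.59 to 7.31 in CD4 cells and 0.223 to 0.771 in CD8 cells, and that of the CD8 lineage markers was 5.87 to 11.6 and 336 to 603. All 10 T cell markers were above background on every 0 h array. Transcripts of other cells were also present: 16 of 17 B cell markers were measured, with summed levels of 5.4 to 118 at 0 h and 11.6 to 38.7 later, and myeloid markers summed to 66.8 to 339 at 0 h and 18.5 to 192 later. Their part in the changes below was not tested. In bulk RNA, fewer cells of a type and less RNA per cell cannot be told apart.

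Within 4 h of stimulation nearly the whole set of genes rose. In CD4 cells 44 of 46 rose past an adjusted p of 0.05 (limma across all 19441 genes, Benjamini-Hochberg), against 15.7% of all genes, and none fell. The members' median change was 1.91 on the log2 scale, or 1.98 above the median of all genes. In CD8 cells 42 of 46 rose, against 14.3% of all genes, with a median of 1.54 (1.46 above all genes), and again none fell; 40 rose under the times of the authors' table, with a median of 1.52. Without the young CD8 array at 4 h the CD8 count was 28, and it stayed between 39 and 44 in CD4 cells whichever array was left out. The heat map of changes by array shows the columns at 4 and 12 h in red for nearly every gene.

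**Figure D1:**
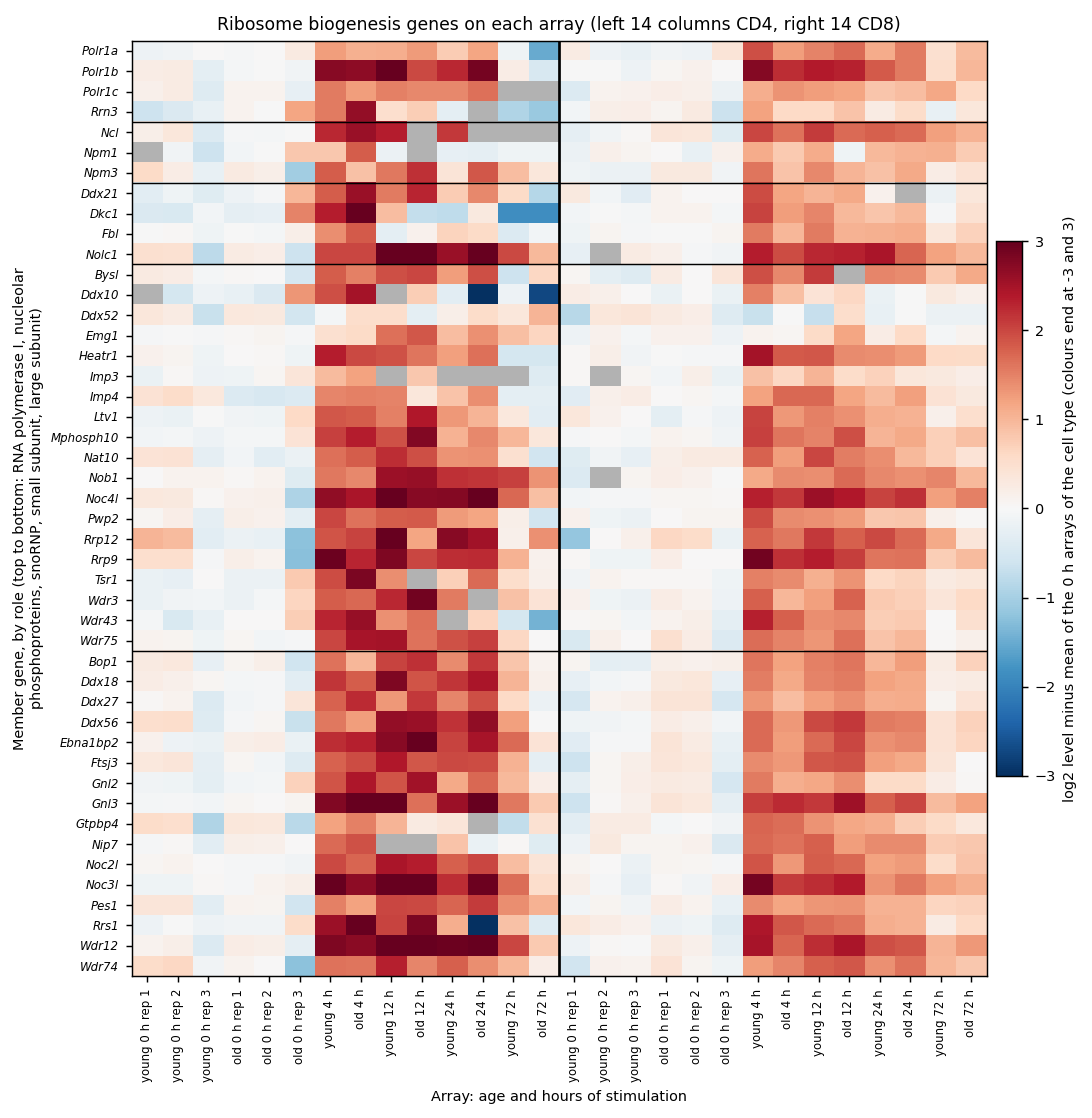
Change of each of the 46 genes (rows, ordered by role) on each of the 28 arrays (columns) from the mean of that cell type at 0 h, in log2 units, with colours ending at -3 and 3 and grey for missing values. The columns at 4 and 12 h are red in nearly every row, those at 72 h are mostly pale, and the row of Ddx52 stays pale throughout.

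RNA polymerase I genes rose early. Polr1b, the second-largest subunit of the enzyme, had levels of -0.36 to 0.18 on the 6 CD4 arrays at 0 h and 2.61 (old) and 2.66 (young) at 4 h. In CD8 cells its levels were 0.15 to 0.42 at 0 h and 2.51 (old) and 3.06 (young) at 4 h. The 0 h and 4 h arrays did not overlap in either cell type, and the fitted rises were 2.70 ± 0.27 (SE; 6.49-fold, adjusted p = 6.0e-07) in CD4 and 2.48 ± 0.27 (5.60-fold, adjusted p = 2.1e-06) in CD8 cells. Polr1a, the largest subunit, rose less, by 1.17 ± 0.29 in CD4 (adjusted p = 0.0046) and 1.59 ± 0.29 in CD8 cells (adjusted p = 0.00044). Rrn3, the factor that makes the polymerase ready to initiate, rose by 2.10 ± 0.34 in CD4 cells (adjusted p = 0.00011), while its change in CD8 cells, 0.90 ± 0.34, missed the threshold (adjusted p = 0.056). Polr1c, a subunit shared with RNA polymerase III, rose in both.

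All 16 large-subunit factors rose at 4 h in both cell types, with median changes of 1.92 in CD4 and 1.49 in CD8 cells. Noc3l, which accompanies pre-60S particles out of the nucleolus, had levels of -0.94 to -0.63 in CD4 cells at 0 h and 1.88 (old) and 2.38 (young) at 4 h. It showed the largest rise of the members in CD4 cells (2.93 ± 0.28, 7.62-fold, adjusted p = 2.8e-07) and the second largest in CD8 cells (2.49 ± 0.28, 5.61-fold, adjusted p = 2.2e-06). Gnl3 (nucleostemin, a nucleolar GTPase) followed in CD4 cells at 2.91 ± 0.31, and Rrs1, which helps to place the 5S RNA, at 2.84 ± 0.74 with a wide error.

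The 3 proteins of the PeBoW complex, which is needed to process the RNA of the large subunit, rose together but by different amounts. Wdr12 went from 0.26 to 0.88 in CD4 cells at 0 h to 3.37 (old) and 3.46 (young) at 4 h, and from 1.24 to 1.77 in CD8 cells to 3.26 and 3.99. The groups did not overlap, and the rise in CD4 cells was 2.75 ± 0.28 (6.73-fold, adjusted p = 5.9e-07). Its partners Pes1 (1.37 ± 0.23) and Bop1 (1.30 ± 0.27) rose by less than 3-fold in CD4 cells, at 2.58-fold and 2.47-fold.

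Of the 19 small-subunit factors, 17 rose in CD4 and 16 in CD8 cells, with medians of 1.85 and 1.58. Heatr1, a large protein of the small-subunit processome that is also tied to polymerase I transcription, had levels of 1.80 to 2.06 in CD4 cells at 0 h and 3.92 (old) and 4.30 (young) at 4 h. In CD8 cells it had 2.21 to 2.50 at 0 h, and 4.17 and 4.83 at 4 h. Its rise was 2.17 ± 0.19 in CD4 (4.49-fold) and 2.17 ± 0.19 in CD8 cells (4.5-fold). Rrp9, a protein of the U3 snoRNP, led the CD8 cells with 2.55 ± 0.31 (5.84-fold, adjusted p = 5.5e-06), going from 1.53 to 1.88 at 0 h to 3.86 (old) and 4.57 (young).

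Apart from Rrn3 in CD8 cells, the exceptions were small-subunit factors. Ddx52, an RNA helicase, had levels of 0.25 to 1.27 in CD4 cells at 0 h and 1.44 (old) and 0.87 (young) at 4 h, so that the arrays overlapped; its changes were 0.23 ± 0.39 in CD4 and -0.33 ± 0.39 in CD8 cells. Emg1, which methylates a pseudouridine of the 18S RNA, rose in CD4 cells (0.52 ± 0.18, adjusted p = 0.028), and its change in CD8 cells was 0.07 ± 0.18. Ddx10 had changes of 2.05 ± 1.18 and 1.2 ± 1.14, with errors too wide for a call.

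The snoRNP proteins Fbl, Dkc1, Nolc1 and Ddx21 all rose at 4 h in both cell types. Fbl (fibrillarin, the 2'-O-methyltransferase) went from 7.12 to 7.42 in CD4 cells at 0 h to 9.08 (old) and 8.63 (young), a rise of 1.61 ± 0.19 (3.06-fold, adjusted p = 3.7e-06), and rose by 1.27 ± 0.19 in CD8 cells. Dkc1 (dyskerin, the pseudouridine synthase) rose by 2.89 ± 0.46 in CD4 and 1.65 ± 0.46 in CD8 cells. The phosphoproteins rose as well: Ncl (nucleolin) went from 5.63 to 6.39 in CD4 cells to 8.65 (old) and 8.32 (young), a 5.41-fold rise, while Npm1 and Npm3 each rose by 1.35 in CD4 cells, where the 0 h and 4 h levels of Npm1 overlapped.

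A second probe was measured for 22 members (29 probes). Its change at 4 h had the sign of the brightest probe for 28 of 29 in CD4 cells and 29 of 29 in CD8 cells. The exception was Ddx56, a helicase of large-subunit assembly, whose second probe changed by -0.30 in CD4 cells against 1.42 for the probe used. Agreement was poorer at 72 h. Other probes of several members then changed in the opposite direction, in CD4 and in CD8 cells, and some are given below.

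The promoters of members that moved early and of those that did not are shown to let their letters be set side by side. RefSeq windows from 250 bases before to 50 after the annotated start were found for 40 of the 46 genes (GRCm38.p6), and were searched on both strands for 3 motifs. The E-box, CACGTG, is bound by Myc and related proteins and reads alike on both strands. The ETS-type motif is CCGGAAG on its own strand. The GC box is GGGCGG. A gene was counted if any of its windows held the motif. The E-box was found for 6 of the 40 genes (15%), against 10.8% of the 12120 measured genes with a window. The ETS-type motif was in 17 (42.5%) against 17%, and the GC box in 30 (75%) against 61.1%. The median GC content was 59.3% in both sets. In the sequences below, from 250 bases before to 30 after the start and all on the plus strand, capitals mark the E-box and the ETS-type motif on either strand; the latter reads CTTCCGG when it lies on the other strand.
Rrn3: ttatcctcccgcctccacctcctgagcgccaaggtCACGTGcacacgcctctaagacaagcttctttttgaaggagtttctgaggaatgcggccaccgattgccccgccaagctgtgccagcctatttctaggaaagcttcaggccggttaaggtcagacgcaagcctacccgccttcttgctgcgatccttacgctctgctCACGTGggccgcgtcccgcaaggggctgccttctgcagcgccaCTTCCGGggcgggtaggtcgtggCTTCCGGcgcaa
Polr1b: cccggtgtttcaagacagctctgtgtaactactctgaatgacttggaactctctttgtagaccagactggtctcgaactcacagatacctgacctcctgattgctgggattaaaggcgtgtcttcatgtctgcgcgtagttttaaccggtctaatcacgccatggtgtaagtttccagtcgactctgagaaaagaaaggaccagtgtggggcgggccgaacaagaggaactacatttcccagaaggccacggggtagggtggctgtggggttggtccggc
Heatr1: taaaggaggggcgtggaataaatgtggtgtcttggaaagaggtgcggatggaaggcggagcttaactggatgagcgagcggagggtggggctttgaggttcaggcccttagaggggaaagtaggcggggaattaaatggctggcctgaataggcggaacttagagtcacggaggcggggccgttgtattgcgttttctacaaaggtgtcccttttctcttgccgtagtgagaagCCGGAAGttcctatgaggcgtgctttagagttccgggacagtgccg
Imp4: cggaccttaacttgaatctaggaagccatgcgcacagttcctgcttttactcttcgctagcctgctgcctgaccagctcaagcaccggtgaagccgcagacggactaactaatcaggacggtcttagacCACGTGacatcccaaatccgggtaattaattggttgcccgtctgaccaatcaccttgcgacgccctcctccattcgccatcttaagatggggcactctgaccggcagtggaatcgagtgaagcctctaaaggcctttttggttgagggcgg
Ddx52: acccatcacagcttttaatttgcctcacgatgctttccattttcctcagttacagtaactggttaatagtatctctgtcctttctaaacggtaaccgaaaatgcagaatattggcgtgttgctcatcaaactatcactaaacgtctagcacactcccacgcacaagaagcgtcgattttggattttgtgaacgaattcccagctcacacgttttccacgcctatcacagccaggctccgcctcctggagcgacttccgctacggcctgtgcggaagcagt
Rrn3 (chr16:13780449-13780728) holds CACGTG at -215 and -48 and CTTCCGG at -5 and 19, counted from the start to the first base of the match. Heatr1 (chr13:12395125-12395404) holds CCGGAAG at -16, and Imp4 (chr1:34439579-34439858), a protein of the U3-Mpp10 complex that rose by 1.49 ± 0.29 in CD4 cells at 4 h, holds CACGTG at -121. Neither motif is in the windows of Polr1b (chr2:129100746-129101025), among the largest rises, and Ddx52 (chr11:83941840-83942119), which showed no call. A match is a description of letters and not evidence of binding, and windows with and without either motif belonged to genes that rose.

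The rise held at 12 h, and medians were lower at 24 h by the scanner files' times. At 12 h 37 of 45 tested members were higher than at 0 h in CD4 cells (24.2% of all genes) with a median of 2.00 (1.74 above all genes), and 40 of 46 in CD8 cells (16% of all genes) with a median of 1.52. At 24 h the counts were 36 higher and 1 lower of 45 in CD4 cells (25.1% and 19.6% of all genes; median 1.55) and 34 of 46 in CD8 cells (16.1% of all genes; median 1.09), or 22 without the old CD8 array at 24 h. Under the times of the authors' table the CD8 counts were 34 at 12 h and 42 at 24 h, with medians of 1.09 and 1.54, so that the CD8 median was no lower at 24 h than at 4 h. The largest rises in CD4 cells at 12 h were those of Wdr12 (3.69, 12.9-fold) and Noc3l (3.58, 12.0-fold), ahead of Nolc1, Noc4l and Ebna1bp2. In CD8 cells Noc4l, a small-subunit factor, led at 12 h with 2.48 and at 24 h with 2.11.

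Some members that rose at 4 h were back near their 0 h level in CD4 cells by 12 h. Fbl had levels of 7.38 (old) and 6.95 (young) at 12 h, within or below its range at 0 h, a change of -0.08. Dkc1 had -0.25 and 1.41, against 0.01 to 1.97 at 0 h, and a change of 0.11. Npm1 changed by 0.10, on the young array alone (6.90), as the old value was missing. With the mean of all probes Npm1 was above 0 h at 24 h in CD4 cells (0.73, limma adjusted p = 0.017), against -0.21 for the probe used. In CD8 cells Fbl stayed up at 12 h, at 8.51 and 9.02. Between 4 and 24 h, 11 members fell in CD4 cells (14.5% of all genes) and 2 rose (20.2%), or 4 and 0 with scaling to the array median, and in CD8 cells 4 fell (10.1%): Wdr43, Noc3l, Pwp2 and Heatr1, with changes of -1.31 to -0.84. Under the times of the authors' table none of these 4 fell from 4 to 24 h in CD8 cells (0.20 to 0.65), and 1 other member did. The median change from 4 to 24 h in CD8 cells was -0.28, of which all genes account for -0.15, and it became 0.06 with scaling to each array's median. Without the old CD8 24 h, the young CD8 4 h or the young CD8 24 h array none of the 4 falls was called; the CD4 count of 13 was 7 without the old CD4 array at 4 h or that at 24 h.

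Single arrays carried the largest falls in CD4 cells. Ddx10 had a level of -6.36 on the old array at 24 h, not well above background, and 1.78 on the young array, against 1.57 to 3.42 at 0 h. Its fitted change from 0 h of -4.55 ± 1.18 (adjusted p = 0.0045) became -0.40, not called (adjusted p = 0.76), without that array. Rrs1 had -2.52 on the same array and 2.84 on the young array, and its change from 4 to 24 h of -4.44 ± 0.91 became -1.70 without the old array. Dkc1 fell by 3.12 ± 0.56 from 4 to 24 h, and both arrays at 24 h (0.76 and -0.29) lay below both at 4 h (3.88 and 2.84).

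By the probes used, most members had returned towards their 0 h level at 72 h. In CD4 cells 11 of 44 were higher (22.2% of all genes) and 5 lower (16.9%) than at 0 h, with a median of 0.36 (0.15 above all genes), which is near the background in both directions; scaling to the array median gave 4 higher and 1 lower. In CD8 cells 18 of 46 were higher (13.6% of all genes) and none lower, with a median of 0.52; the count was 3 with scaling to the array median and 4 with slide as a block. From 24 to 72 h, 24 of 43 members fell in CD4 cells (8.71% of all genes) and none rose. Without the old CD4 array at 24 h the number of falls was 6, and without the one at 72 h it was 10. In CD8 cells no member passed from 24 to 72 h in limma (0.736% of all genes did), and the median was -0.62. An unadjusted limma p under 0.05 was found for 16 members, a count not set against all genes under that rule. A fall was called for 18 members under the times of the authors' table, with a median of -0.95. That count is given without the share of all genes. The CD8 count at 72 h was 4 without the young and 5 without the old array at 72 h, and the CD4 count of 16 was 8 without the young array at 72 h.

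**Figure D2:**
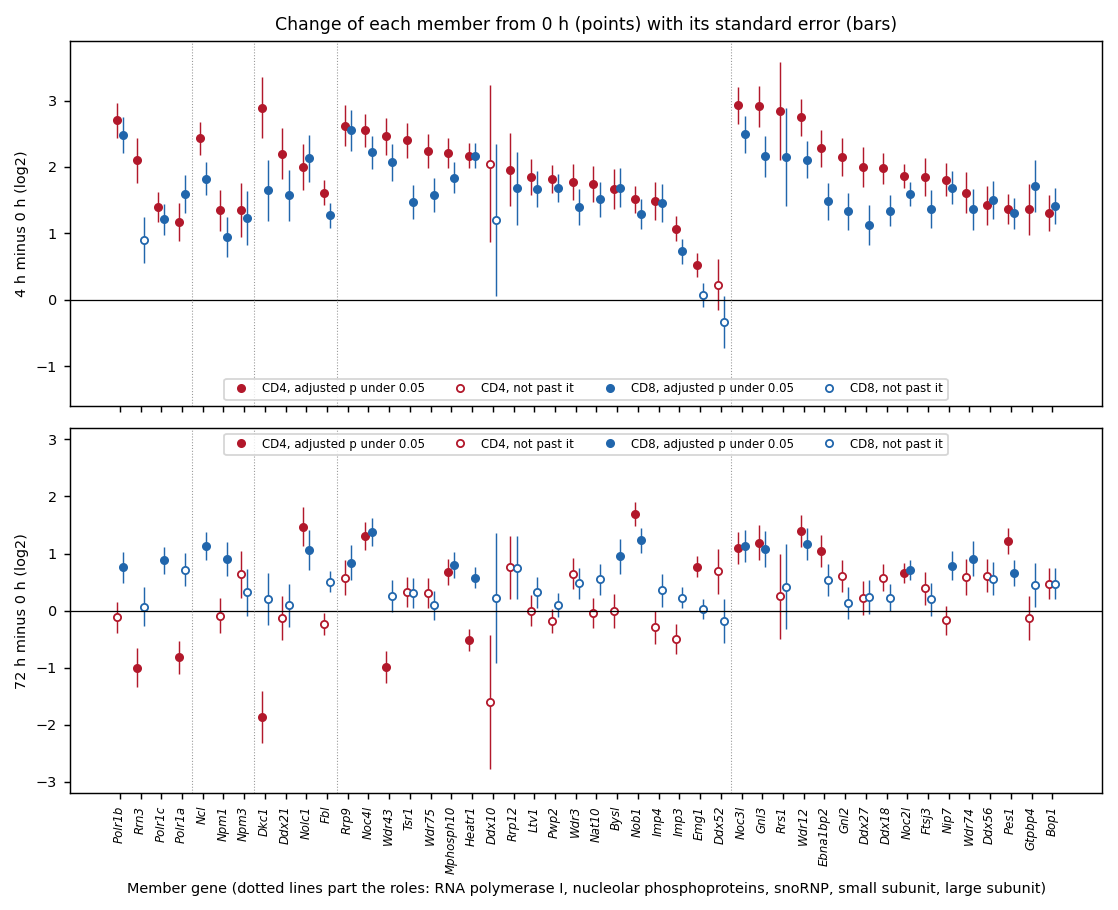
Change from 0 h with its standard error (bars) of each member in CD4 (red) and CD8 (blue) cells at 4 h (top) and 72 h (bottom), in log2 units, grouped by role. Filled points passed an adjusted p of 0.05: 44 and 42 at 4 h, all above 0, and 16 and 18 at 72 h, of which 5 in CD4 cells lie below 0.

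Of the polymerase I genes, Polr1b was back at its 0 h level in CD4 cells at 72 h, and Polr1a and Rrn3 were called below it. Polr1b had levels of 2.80 (old) and 2.19 (young) at 24 h, and -0.55 and 0.17 at 72 h, within or below its 0 h range of -0.36 to 0.18. Its change from 24 to 72 h, -2.68 ± 0.33 (6.43-fold, adjusted p = 0.00013), was the largest fall of the members. Polr1a fell from 24 to 72 h by 1.80 ± 0.36, to 1.81 (old) and 3.19 (young), and its difference from 0 h was -0.82 ± 0.29 (adjusted p = 0.034). That last call rests on the old array, since the difference was -0.05 without it (adjusted p = 0.93). Rrn3 had 1.17 and 1.37 at 72 h, below all its 0 h levels (1.64 to 3.45), a change of -1 ± 0.34 (adjusted p = 0.025) that became -0.52 (adjusted p = 0.44) without the old array. Of 16 other polymerase I factors 4 were higher and 2 lower than at 0 h at that time, with a median of 0.38.

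The other members called below 0 h in CD4 cells at 72 h, in a count near the background, were Dkc1, Wdr43 and Heatr1. With the mean of all probes they changed by -1.40, 0.10 and 0.05. Dkc1 had -1.38 and -1.40, below all 6 arrays at 0 h, a change of -1.86 ± 0.46 (adjusted p = 0.0035), or -1.67 (adjusted p = 0.061) without the old array. Heatr1 had 1.41 and 1.42 and fell by 0.52 ± 0.19 (adjusted p = 0.032), with an adjusted p of 0.11 without the old and 0.15 without the young array, and its other probes changed by 0.40 and 0.29. Wdr43, a protein of the small-subunit processome, had a change of -0.98 ± 0.28 (adjusted p = 0.0099), or -0.32 (adjusted p = 0.51) without the old array, and its other probe changed by 1.17. With slide as a random block Dkc1 alone of the 5 kept an adjusted p under 0.05 (0.037).

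Other members were called above 0 h at 72 h, in CD4 cells again in a count near the background. Nob1, the nuclease that makes the 3' end of the 18S RNA, had levels of 0.50 to 0.98 in CD4 cells at 0 h, 3.47 and 3.44 at 12 h, and still 2.22 (old) and 2.91 (young) at 72 h. The 72 h arrays lay above all 0 h arrays, and the rise of 1.70 ± 0.21 (3.25-fold, adjusted p = 6.3e-06) was the largest at that time. In CD8 cells it was up by 1.23 ± 0.22 (2.35-fold, adjusted p = 0.00034). Noc4l (1.31 ± 0.25 and 1.38 ± 0.25), Wdr12 (1.40 ± 0.28 and 1.16 ± 0.28), Noc3l (1.1 ± 0.28 and 1.14 ± 0.28) and Nolc1, a chaperone of snoRNPs (1.47 ± 0.34 and 1.07 ± 0.35), were also above 0 h in both cell types. The other probe of Nolc1 changed by -0.67 in CD4 and -0.42 in CD8 cells at 72 h. Other probes of Wdr12 changed by -1.24 and 1.42 in CD4 cells, and by 0.96 and 0.94 in CD8 cells. Pes1 was up by 1.22 ± 0.23 in CD4 cells, although its other probe changed by -1.20. Emg1, which moved little at 4 h, was 0.77 ± 0.18 above 0 h in CD4 cells at 72 h after levels of 6.60 (old) and 6.39 (young) at 12 h, and 0.03 above it in CD8 cells.

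By the times of the scanner files, most members had their highest level at 4 or 12 h in each series. Of the 33 members measured in every group, 21 had their highest level at 4 or 12 h in all 4 series of an age and a cell type, and 18 were lowest at 0 h in all 4. Counting every member at its highest measured time, 20 of 46 were highest at 4 h, 16 at 12 h, 9 at 24 h and 1 at 72 h in old CD4 cells, and 21 at 4 h and 25 at 12 h in young CD4 cells. In old CD8 cells 15 were highest at 4 h, 28 at 12 h and 3 at 24 h, and in young CD8 cells 28 at 4 h, 15 at 12 h and 1 each at 0, 24 and 72 h. Under the times of the authors' table the CD8 counts at 4, 12 and 24 h would stand at 24, 4 and 12 h. Most members in young CD8 cells would then be highest at 24 h. Such counts were not made over all genes. Ddx52 departed most, with its highest level at 72 h in old CD4 cells and at 0 h in young CD8 cells.

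The size of the change was compared between the cell types as CD8 change minus CD4 change. At 4 h no member differed past the threshold in limma (0.0617% of all genes did), and the median difference was -0.34. An unadjusted limma p under 0.05 was found for 2 members. This count and the unadjusted one at 24 h were not set against all genes. At 12 h Fbl differed (1 of 45 higher in CD8, 0.465% of all genes), by 1.37 ± 0.27 (adjusted p = 0.019), as its levels above show. At 24 h no member passed (limma; 4.83% of all genes), 17 had an unadjusted p under 0.05, and the median was -0.60, or -0.37 relative to all genes; 5 passed without the young CD4 24 h array, and 1 without replicate 3 of old CD8 cells at 0 h. At 72 h Polr1a (1.54 ± 0.42, adjusted p = 0.029) and Heatr1 (1.11 ± 0.26, adjusted p = 0.015) had the higher change in CD8 cells (2 of 44; 3.18% of all genes), and the median was 0.10. Under normexp with quantile normalization 1 member was higher and 4 were lower in CD8 cells at 12 h, 1 was higher and 6 were lower at 24 h, and 6 were higher and 1 lower at 72 h. With array weights 3 were higher and 8 lower at 24 h. At 12 h 1 was higher and 11 were lower, and at 24 h 6 were higher and 3 lower, under the times of the authors' table. The counts under these settings are given without the share of all genes. Fbl was not called without the young CD8 array at 12 h, nor Polr1a and Heatr1 without the old CD8 array at 72 h. CD4 and CD8 arrays never shared a slide, and the stimulated ones were read on different scanners, so cell type and scanner cannot be told apart in these differences.

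At 0 h members were somewhat higher in CD8 than in CD4 cells. Over the 12 arrays 9 of 46 were higher in CD8 cells (8.73% of all genes), none was lower, and the median difference was 0.23. Npm3, a histone-binding nucleolar protein, had levels of 1.65 to 3.27 in CD4 and 3.64 to 4.11 in CD8 cells, a difference of 1.12 ± 0.24 (adjusted p = 0.015). Wdr12 had 0.26 to 0.88 and 1.24 to 1.77 (0.85 ± 0.16, adjusted p = 0.0077), and Noc3l had -0.94 to -0.63 and -0.48 to -0.03 (0.58 ± 0.12, adjusted p = 0.011). Noc4l, Bop1, Pwp2 and Heatr1 also did not overlap (0.39 to 0.71), whereas the arrays of Bysl (0.60 ± 0.15) and Nat10, the enzyme that acetylates cytidines of the 18S RNA (0.52 ± 0.15), overlapped.

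**Figure D3:**
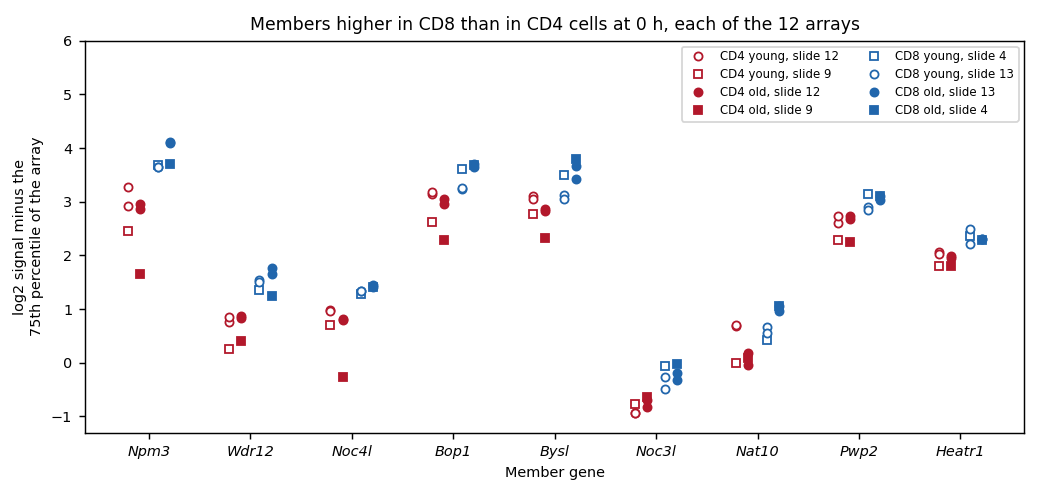
Level at 0 h (log2 signal minus the array's 75th percentile) of the 9 members that were higher in CD8 (blue) than in CD4 (red) cells, on each of the 12 arrays; open points are young, filled points old, and squares mark slides 9 and 4. Npm3, Wdr12, Noc4l, Bop1, Noc3l, Pwp2 and Heatr1 show no overlap between the cell types, and the CD4 squares lie below the CD4 circles for 7 of the 9 genes, all but Noc3l and Nat10.

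In some of these genes the gap between slides was close to the difference between cell types. In CD4 cells the gap, slide 9 minus slide 12, was -0.95 for Npm3, -0.66 for Noc4l and -0.63 for Bop1, and 0.15 for Noc3l. Over all members the median gap between slides was -0.19 in CD4 and -0.18 in CD8 cells, against 0.24 and 0.12 over all genes. None of the 9 was called with slide as a random block, nor with scaling to the array median. The count was 3 without any of young CD4 replicate 1, old CD8 replicate 1, young CD8 replicate 1 or young CD8 replicate 2. It was 4 without young CD4 replicate 2, old CD8 replicate 2 or young CD8 replicate 3, and 5 without old CD4 replicate 1 or young CD4 replicate 3.

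Few members differed with age at 0 h. In CD4 cells 1 of 46 members was lower in old mice (0.52% of all genes) and 3 had an unadjusted p under 0.05; in CD8 cells none passed (limma; 2.21% of all genes) and 2 had an unadjusted p under 0.05. Median differences, old minus young, were 0.03 and 0.09. The gene was Imp4: old CD4 arrays had -2.38, -2.45 and -2.38, and young arrays -1.53, -1.41 and -1.64, without overlap. The difference was -0.88 ± 0.18 (adjusted p = 0.042). With the replicate number as a block the adjusted p was 0.099, and leaving out any of 5 of the 6 arrays gave 0.059 to 0.18, so that the count of 1 became 0; without young replicate 3 it was 0.042.

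With slide as a fixed block 6 members were called in CD4 cells at 0 h. This is a smaller share of the members than the 23% of all genes called, so the calls do not set the members apart. Rrn3 was higher in old cells (0.85 ± 0.20), and Imp4 (-0.88 ± 0.12), Rrp12 (-1.10 ± 0.12), Wdr74 (-0.73 ± 0.16), Rrp9 (-0.64 ± 0.18) and Ddx56 (-0.44 ± 0.10) were lower. In CD8 cells the same fit called only Rrp12, an export factor of both subunits, given here without the share of all genes. It was higher in old cells (0.66 ± 0.12), the opposite direction from CD4 cells. The difference between these directions was not tested. Within a slide the median difference over members ranged from -0.04 to 0.14.

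Over the 4 to 72 h arrays no member differed with age, in CD4 (limma; 0.113% of all genes, 2 members with an unadjusted p under 0.05) or in CD8 cells (0.412% of all genes, 0 with an unadjusted p under 0.05). The median differences were -0.12 and -0.08. In CD4 cells the largest were those of Ddx10 (-3.38 ± 1.30, adjusted p = 0.49), which rests on the array described above, and Rrp9 (-0.59 ± 0.26, adjusted p = 0.54).

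**Figure D4:**
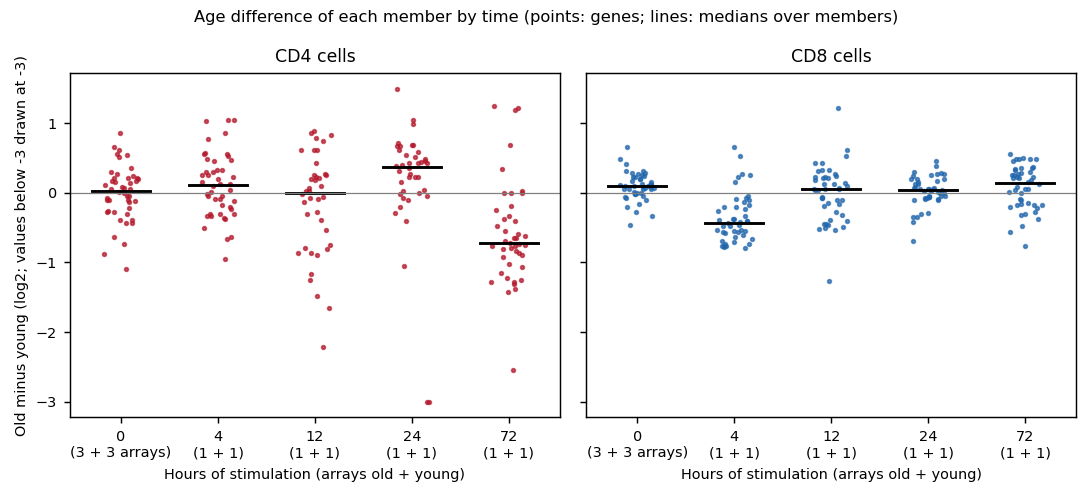
Old minus young difference (log2) of each member at each time in CD4 (left) and CD8 (right) cells, with lines at the medians; values below -3 are drawn at -3. Most points lie below 0 in CD4 cells at 72 h (7 of 43 above) and in CD8 cells at the time labelled 4 h (6 of 46 above).

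Single times, with 1 array per age and no test, showed larger shifts. At 72 h the old CD4 array was higher than the young for 7 of 43 members, with a median difference of -0.72, against 0.01 for all genes. The members' median change from 0 h was 0.11 on the old and 0.62 on the young array. At 4 h (24 h in the authors' table) the old CD8 array was higher for 6 of 46, with a median of -0.43 against -0.08 for all genes, and the medians of change were 1.32 (old) and 1.74 (young). Other assembly factors moved with them, with medians of -0.57 and -0.56 (small and large subunit) in CD4 cells at 72 h, and -0.33 and -0.35 in CD8 cells at 4 h. At 12 h the CD4 median was 0.00 and at 24 h 0.37, so the direction was not kept through time.

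Other genes of the pathway also rose at 4 h. Of 43 other small-subunit factors 31 rose in CD4 and 32 in CD8 cells at 4 h (medians 1.58 and 1.30), led by Rcl1 (2.75) and Utp6 (2.71) in CD4 and Tbl3 (2.22) in CD8 cells. Of 47 other large-subunit factors 34 and 33 rose (1.46 and 1.27), led by Urb2 (3.06 ± 0.33) in CD4 and Ppan (2.31) in CD8 cells. Of 11 other snoRNP factors 9 rose in each, with Nop58 at 2.86 and 2.23. No gene of these 3 lists fell at 4 h, except that 1 small-subunit factor in CD4 and 2 in CD8 cells did under normexp background correction with quantile normalization. Other polymerase I factors moved less, with 9 higher and 1 lower of 16 in CD4 and 7 higher and 1 lower in CD8 cells (0.83 and 0.60), and 5 of 13 exosome subunits, which trim ribosomal RNA precursors, rose in each (0.60 and 0.62). With scaling to the array median 29 and 21 small-subunit, 31 and 22 large-subunit and 9 and 6 snoRNP factors rose in CD4 and CD8 cells, 4 and 2 polymerase I factors with none lower, and 4 and 2 exosome subunits. The exosome list had higher medians in CD4 cells at 12 and 24 h (1.53 and 1.29) than at 4 h.

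**Figure D5:**
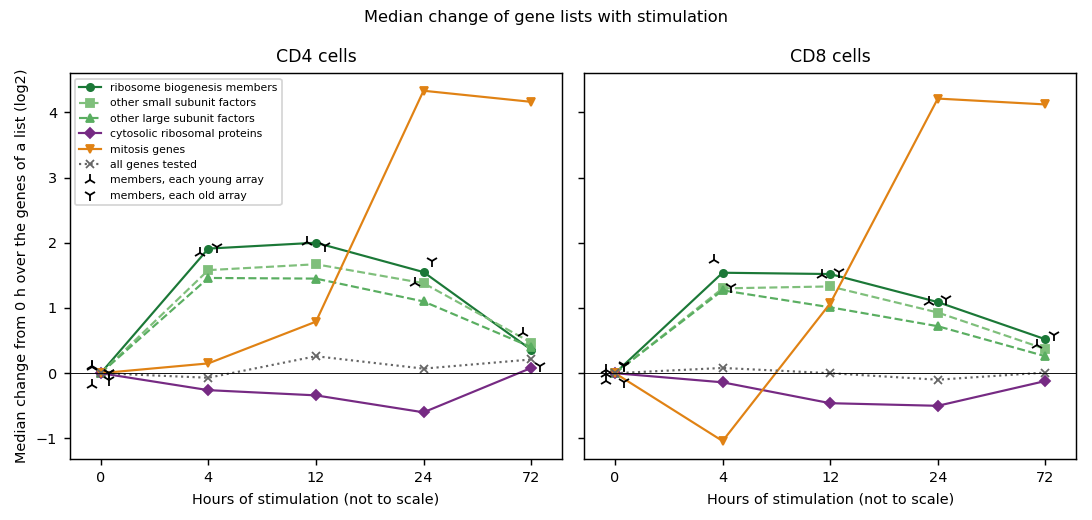
Median change from 0 h (log2) over the genes of each list at 0, 4, 12, 24 and 72 h in CD4 (left) and CD8 (right) cells; Y-shaped marks give the members' median on each array. The members and the other assembly factors rise by 4 h and come down by 72 h, the ribosomal proteins lie at or below 0 up to 24 h, and the mitosis genes rise by 24 h and stay up.

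The proteins of the ribosome itself took another course at 4 h. Of 76 cytosolic ribosomal protein genes none rose and 1 fell at 4 h in each cell type, Rpl27a (-0.70 ± 0.23 in CD4, -0.85 ± 0.23 in CD8 cells), and the list medians were -0.26 and -0.14; 7 and 5 fell under normexp with quantile normalization, and 0 and 0 with scaling to the array median. At 24 h 36 of 71 were lower and 5 higher in CD4 cells (median -0.60), and 16 of 76 were lower and none higher in CD8 cells (-0.50); with scaling to the array median these counts were 14 lower and 4 higher in CD4 cells, and 0 lower and 1 higher in CD8 cells, with medians of -0.33 and -0.15. Of all genes, 25.1% were higher and 19.6% lower in CD4 cells at 24 h. In CD8 cells 33.1% of all genes were called at 24 h, 16.1% of them all as higher, so the 16 of 76 lower genes are not far from the background. Of the ribosomal protein genes 5 were saturated, on 2 arrays at most. Mitosis genes came later than the assembly factors: at 4 h 0 of 24 were higher in either cell type and 1 was lower in CD4 and 4 in CD8 cells, and at 24 h 22 of 23 were higher in CD4 (median 4.33) and 21 of 24 in CD8 cells (4.21), with Bub1b at 7.11 and 6.19. At 72 h 22 of 24 were higher in each (4.16 and 4.12), when the members' medians were 0.36 and 0.52.

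Myc had levels of 2.76 to 3.32 in CD4 cells at 0 h and 6.72 (old) and 6.61 (young) at 4 h, a rise of 3.65 ± 0.24 (12.5-fold, adjusted p = 5.3e-09). In CD8 cells it went from 3.69 to 4.34 at 0 h to 6.60 and 7.06, a rise of 2.80 ± 0.24 (6.96-fold, adjusted p = 1.1e-07). It was still 1.73 ± 0.24 above 0 h in CD4 cells at 72 h, and 0.51 ± 0.24 in CD8 cells (adjusted p = 0.12). The 0 h level was 1.02 ± 0.14 higher in CD8 cells, and the CD8 change minus the CD4 change was -1.64 ± 0.33 at 12 h (adjusted p = 0.02) and -1.21 ± 0.33 at 72 h (adjusted p = 0.032). Of its network, Mxd4, a repressor that competes for the partner Max, changed by -3.46 in CD4 and -2.33 in CD8 cells at 4 h, and Mxd1, another such repressor, rose by 2.12 and 2.20.

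Across the 20 group means, 34 of the 46 members had a Pearson r above 0.80 with the mean of the others. Ncl (0.97), Polr1b and Pwp2 (0.96 each) were most alike, and Npm1 (0.49), Emg1 (0.47), Ddx10 (0.19) and Ddx52 (-0.23) least. The groups share slides and scaling, and these values are a description. Of the genes measured in all 20 groups 465 of 17830 (2.61%) had an r above 0.8 with the members' mean, among them 21 of 34 other small-subunit, 19 of 38 other large-subunit and 6 of 9 other snoRNP factors, and 0 of 43 ribosomal proteins and 0 of 19 mitosis genes. Myc had 0.87. The genes outside the members with the highest r were Slc19a1, a folate carrier, and LOC628211 (0.97 each), followed by St6galnac4, Fzd9, Rrp15, Rpf2, Myohd1, Ccdc86 and Pwp1 (0.96 each) and Nop56 (0.95). Rrp15, Rpf2 and Ccdc86 stood on the list of other large-subunit factors, and Nop56 on that of snoRNP factors.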

How the data were processed

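Sorted CD4 and CD8 T cells were measured on 28 single-colour (Cy3) Agilent arrays. The authors deposited the scanner files, whose background-subtracted intensity per spot was read with Agilent Feature Extraction 9.5.1.1 (10 arrays) or 10.1.1.1 (18 arrays), per the file headers. They also deposited a table of log2 values, in which 22 of 28 columns matched the array they are labelled with and 6 columns of stimulated CD8 cells matched another time; its values served as an alternative where the columns matched, and its CD8 times as another. The number of arrays limits the precision.

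Control spots were left out, spots marked as outliers were set to missing and the 10 repeat spots of a probe were averaged. The log2 of the processed signal minus that of the array's 75th percentile was used. Probes were named by accession (22951 of 41174), symbol (6659), synonym (3109) or the file's own name (8455). The brightest probe of a gene that was well above background on at least 3 arrays was kept. Differences were tested with limma 3.58.1 (lmFit, eBayes) in R 4.3.3 over all genes, with Benjamini-Hochberg adjustment and a threshold of 0.05, in 21 comparisons. Changes with time were fitted on all 28 arrays, with means for each time within a cell type and 1 age term for each; differences at 0 h on 12 arrays; and age differences under stimulation on 16 arrays, with means for each time. Each fit gives a gene 1 estimate of the spread, shared by all arrays of the fit. A stimulated time adds to it only through its young and old arrays. The standard error of Noc3l against 0 h was thus 0.28 at every stimulated time in both cell types. The p-values therefore do not measure the spread at a single time, and make no separate allowance for the noisier CD4 arrays. Shares of all genes called refer to the adjusted threshold, and to these fits unless another setting is named. Counts of members under the alternatives are otherwise given without that share. Counts of members with an unadjusted p under 0.05 are given without the share of all genes under that rule.

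The members and the other gene lists were chosen with earlier results of these data known. All 46 members could be named. In each comparison, named members were drawn from those past the threshold with the 5 largest rises and falls and those against the majority. The 3 smallest changes not past it were drawn on too, and not every such member is named. Other lists name up to 3 genes. Other single values shown were chosen by role. In simulated data of 19441 genes with independent noise and no slide effect, 100 genes were changed by 2 and 100 others by 1 on the log2 scale. Of those changed by 2, 53 were recovered for CD4 cells at 4 h, 43 for age in CD4 cells at 0 h and 44 for age in CD8 cells from 4 to 72 h. Of those changed by 1, 9, 3 and 2 were recovered. In the real data 32.1% of all genes were called in CD4 cells at 4 h, far more than were changed here, so these rates do not give the power of that comparison.

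Old and young arrays at 0 h share replicate numbers. In CD4 cells same-numbered arrays deviated together from their group means (r = 0.55, 0.49 and 0.68), and the numbers follow the slides; in CD8 cells they did not (-0.24, 0.08 and -0.41). Alternatives were other scalings, normexp with an offset of 50 and quantile normalization, no filter, the mean of all probes, replicate and slide blocks, array weights and leaving out each array; 5 further ones were chosen after seeing the data. Promoter windows came from RefSeq (GRCm38.p6). A further gate marker is not reported here.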

Additional observations from a re-analysis of the deposited data

Results flagged for a closer look

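In 3 members the change from 0 h differed between the cell types past an adjusted p of 0.05 (limma across all genes; CD8 change minus CD4 change). Fbl differed at 12 h by 1.37 ± 0.27 (adjusted p = 0.019): both CD8 arrays were above all CD8 arrays at 0 h, and the CD4 arrays were not. Its adjusted p lay between 0.003 and 0.36 over the alternatives, the highest with slide as a block. Polr1a differed at 72 h by 1.54 ± 0.42 (adjusted p = 0.029). The old CD4 array had a level of 1.81 and the young one 3.19, and the difference was 0.77 (adjusted p = 0.25) without the old array and 0.80 (adjusted p = 0.20) with the mean of all probes. Heatr1 differed at 72 h by 1.11 ± 0.26 (adjusted p = 0.015), and by 0.58 (adjusted p = 0.29) with the mean of all probes. With slide as a block the limma adjusted p was 0.34 for Polr1a and 0.26 for Heatr1, and with scaling to the array median 0.13 and 0.27. CD4 and CD8 arrays never shared a slide, so the part of scanner and slide cannot be told apart from that of cell type. No group held more than 3 arrays, so that no array was tested as an outlier of its group.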

How the results depend on the processing

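The counts of members at 4, 12 and 24 h against 0 h stayed within 1.5 times under every setting that kept all arrays, and so did those not named here. Where a setting moved a count further, the cause was not tested. Scaling to the array median gave 5 members called in CD4 and 3 in CD8 cells at 72 h, 4 from 4 to 24 h and 8 from 24 to 72 h in CD4 cells, and 0 from 4 to 24 h in CD8 cells, for the difference in change at 12 h and at 72 h, for age in CD4 cells at 0 h and for CD8 against CD4 cells at 0 h. Normexp with quantile normalization gave 9 from 4 to 24 h and 2 from 24 to 72 h in CD8 cells, 5, 7 and 7 for the difference in change at 12, 24 and 72 h, and 0 for age in CD4 cells at 0 h. Without the filter on dim genes the difference in change gave 0 at 12 h and 1 at 72 h, age in CD4 cells 0, and CD8 against CD4 cells at 0 h 3. The mean of all probes gave 10 in CD4 cells at 72 h, 7 from 4 to 24 h in CD8 cells, and 2, 1 and 0 for the difference in change at 12, 24 and 72 h. Slide as a block gave 7 and 4 at 72 h in CD4 and CD8 cells, 8 from 4 to 24 h and 7 from 24 to 72 h in CD4 cells, 0 from 4 to 24 h in CD8 cells, 0 for the difference in change at 12 and at 72 h, 6 and 1 for age at 0 h in CD4 and CD8 cells, and 0 for CD8 against CD4 cells. Array weights gave 10 at 72 h and 11 from 24 to 72 h in CD4 cells, 10 from 4 to 24 h in CD8 cells and 11 for the difference in change at 24 h. With only the 0 h arrays of the earlier slide the difference in change gave 0 at 12 h and 1 at 24 h, and with outlier spots kept 4 at 72 h. With the replicate number as a block the count for age in CD4 cells was 0 in place of 1; in CD8 cells it stayed 0. With the stimulated CD8 arrays at the times of the authors' table the counts in CD8 cells were 1 from 4 to 24 h and 18 from 24 to 72 h, and 12 and 9 for the difference in change at 12 and 24 h; from 4 to 24 h the sign turned for Heatr1 (0.52), Noc3l (0.20), Pwp2 (0.36) and Wdr43 (0.65).

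Leaving out each array in turn, the counts ranged in CD4 cells from 39 to 44, 33 to 39, 32 to 37 and 8 to 17 at 4, 12, 24 and 72 h, and in CD8 cells from 28 to 42, 33 to 40, 22 to 35 and 4 to 17. From 4 to 24 h and from 24 to 72 h they ranged from 7 to 10 and 6 to 26 in CD4 cells, and from 0 to 4 and 0 to 0 in CD8 cells. For the difference in change they ranged from 0 to 0, 0 to 1, 0 to 5 and 0 to 3 at 4, 12, 24 and 72 h, for age at 0 h from 0 to 1 in CD4 and 0 to 0 in CD8 cells, for CD8 against CD4 cells at 0 h from 3 to 9, and for age over 4 to 72 h from 0 to 0 in each. With the mean of all probes the sign turned for Ddx56 from 4 to 24 h in CD4 cells (-0.16), Ebna1bp2 (-0.56), Heatr1 (0.054) and Wdr43 (0.10) at 72 h, and Npm1 (0.73), Polr1a (-0.14) and Rrn3 (-2.05) at 24 h, in CD4 cells. Arrays at 12, 24 and 72 h in CD4 cells were dim and noisy, and 1 array per age at each stimulated time limits every comparison.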

Other observations

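The antagonists of Myc did not move as a block. Mxd3, a further repressor of the Max network, was 4.86 ± 0.57 above 0 h in CD4 and 3.34 ± 0.57 in CD8 cells at 24 h (adjusted p = 1.9e-06 and 0.00018), and 4.35 ± 0.57 and 3.22 ± 0.57 at 72 h, when most ribosome assembly genes had come down. Mxd4 was still below 0 h in CD8 cells at 72 h (-1.22 ± 0.32, adjusted p = 0.0076).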
